A study of Homo sapiens with 6 samples.

Results

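HES6 and 9 genes of the Notch pathway were followed in the RNA of U2OS cells, a human osteosarcoma line, after knockdown of the histone demethylase LSD1. These 10 genes, of 15585 in the table of all 6 libraries, comprise the receptors NOTCH1, NOTCH2 and NOTCH3, the ligand JAG1, the DNA-binding protein RBPJ, and the basic helix-loop-helix (bHLH) genes HES1, HES4, HEY1, HEYL and HES6. HES6 was chosen by its lower read counts after the knockdown, so its difference is given as a description with no p-value. The other 9 were chosen by pathway and family, with earlier results of these data known, and the counts made over them are descriptions too.

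Cells were transfected with control siRNA (siCTR, 3 libraries) or with siRNA against LSD1 (siLSD1, 3 libraries) and collected at 48 h, so that both groups had been through a transfection. Which LSD1 siRNA was used for these libraries is not given in the sources used here. The parent study examined LSD1 in origin firing and replication timing, and its RNA-seq compared gene expression between the same groups. Nothing in the labels says that the replicates were separate cultures, so that p-values and SDs measure the spread between these libraries, which may be technical.

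In Notch signalling, a ligand on one cell binds a receptor on its neighbour, the receptor is cut by ADAM proteases and then by γ-secretase, and the freed intracellular domain enters the nucleus. There it joins RBPJ and a Mastermind protein, and genes that RBPJ otherwise keeps silent, such as HES1, HES4, HEY1 and HEYL, are transcribed. These encode bHLH repressors, whereas the HES6 protein is known to bind HES1 and to counter its repression, and HES6 is often found in differentiating neural and muscle cells as a target of proneural factors rather than of Notch. LSD1 is known to act with RBPJ at Notch target genes in other cell types.

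The promoters of HES6, HES1 and HES4 are shown so that the gene chosen for its fall can be set beside a pair of HES genes with RBPJ motifs. The sequences are from RefSeq on GRCh38.p14, 5′ to 3′ on the strand of the gene, and capitals mark the RBPJ motif GTGGGAA and the CCAAT box on either strand. HES6 is at chr2:238240042-238240288 on the minus strand, HES1 at chr3:194135898-194136147 on the plus strand and HES4 at chr1:1000168-1000347 on the minus strand. The last base printed is 4, 1 and 71 bases before the RefSeq start site of HES6, HES1 and HES4, where the canonical GENCODE transcript starts too. Other GENCODE transcripts of HES6 and HES4 start further upstream, so that the HES6 window lies within the gene span given later, and the bases before those other starts were not searched.
HES6: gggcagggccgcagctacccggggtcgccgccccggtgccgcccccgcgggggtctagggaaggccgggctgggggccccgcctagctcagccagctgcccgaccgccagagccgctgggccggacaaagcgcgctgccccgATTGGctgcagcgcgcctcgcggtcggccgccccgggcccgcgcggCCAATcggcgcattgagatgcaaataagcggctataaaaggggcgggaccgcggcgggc
HES1: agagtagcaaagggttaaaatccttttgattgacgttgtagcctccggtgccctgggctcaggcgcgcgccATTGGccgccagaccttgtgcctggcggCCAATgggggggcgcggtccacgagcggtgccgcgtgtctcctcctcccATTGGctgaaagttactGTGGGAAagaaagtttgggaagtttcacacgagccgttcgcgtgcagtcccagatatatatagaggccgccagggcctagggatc
HES4: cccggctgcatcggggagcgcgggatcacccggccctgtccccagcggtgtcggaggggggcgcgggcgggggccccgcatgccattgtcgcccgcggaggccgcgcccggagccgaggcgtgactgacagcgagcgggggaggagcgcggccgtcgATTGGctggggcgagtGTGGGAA

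The RBPJ motif was found once in the HES1 window, where its first base is at -85 from the start, and once in the HES4 window, at -77, and it was not found in that of HES6. Over windows of 250 bases before the start, 9 of the 10 members had an entry, HEY1 being the other, and 4 of their 13 promoters (those of HES1, HES4 and HEYL and 1 of RBPJ) held the motif, as did 5.4% of all 35116 promoters. CCAAT boxes were found 2 times in HES6, 3 times in HES1 and 1 time in HES4, and 32.0% of all promoters had at least 1. The N-box CACNAG, a site that HES proteins bind, was found 3 times in HES1 and in neither HES6 nor HES4, with 32.0% of all promoters holding it. The E-box CACGTG, which 6.3% of promoters held, was in none of the members' windows. All motifs were searched on both strands, the motifs do not contain one another, and a match is a string of letters and not a measured binding site.

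The libraries held 12513511 to 13561344 counted reads. LSD1 itself (KDM1A, GRCh38 chromosome 1, 23019443 to 23083689) was counted 6140 to 6573 times per siCTR library and 1110 to 1246 times per siLSD1 library, which left 18.5% of its siCTR level. Of the mesenchymal and bone markers, VIM had 9487 to 11615 reads and ALPL 4162 to 5411, COL1A1 had 122 to 200, BGLAP had 1 to 12, SPARC, RUNX2 and SP7 had at most 4 in any library, and COL1A2 was not listed. The blood and endothelial markers PTPRC and PECAM1 had at most 3 reads in any library. Of the epithelial markers, EPCAM had 28 to 41 reads with overlapping groups, and CDH1 had 66 to 95 in siCTR and 117 to 154 in siLSD1 (log2 fold change 0.77, SE 0.19, adjusted p = 0.0699 by edgeR's quasi-likelihood test). Its part in the results below was not tested.

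HES6 RNA was lower in all 3 siLSD1 libraries than in any siCTR library. HES6 (GRCh38 chromosome 2, 238238267 to 238240662, minus strand) was counted 63, 101 and 49 times in siCTR, replicates 1 to 3 in order, against 26, 30 and 17 times in siLSD1. As CPM, the counts scaled to library size with TMM factors, these were 4.85, 7.86 and 3.64 against 1.94, 2.41 and 1.26. The highest siLSD1 library lay below the lowest siCTR library, and within each group replicate 2 was the highest and replicate 3 the lowest.

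The mean HES6 level was 5.45 ± 2.17 CPM in siCTR and 1.87 ± 0.577 CPM in siLSD1 (SD, n = 3 each), so that 34.3% of the siCTR level was left. The log2 fold change of siLSD1 over siCTR was -1.54, with an SE of 0.33 and a 95% interval of -2.26 to -0.83. Neither the value nor the interval allows for the choice of HES6 by its fall, so the interval is not a test. This is a gene of low counts, and its range within siCTR, 3.64 to 7.86 CPM, was wide. The log2 fold change lay between -1.77 without siCTR replicate 3 and -1.18 without siCTR replicate 2. In RNA from whole cultures, fewer cells with HES6 and less HES6 RNA per cell cannot be told apart. In GENCODE 44, HES6 overlaps a non-coding gene on the opposite strand, and whether the counting used strand is not given in the sources used here.

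**Figure D1:**
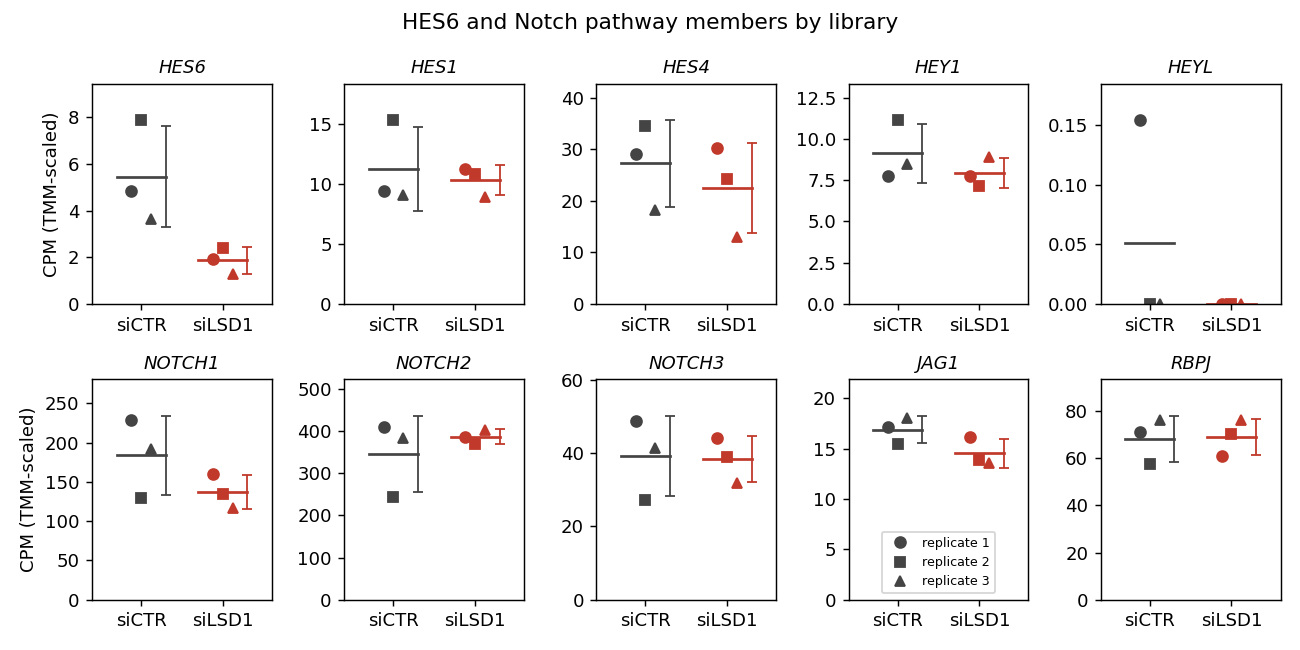
TMM-scaled CPM (y axis, from 0, own scale in each panel) of the 10 members in the 3 siCTR and the 3 siLSD1 libraries (x axis). Points are libraries, shaped by replicate number, the horizontal line is the group mean and the bar its SD, left out for HEYL. HES6 has no overlap between the groups, whereas the 8 other members that passed the filter on low counts overlap.

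Of the other 9 members, 8 passed the filter on low counts (edgeR's filterByExpr with a minimum count of 10) and HEYL did not. None of the 8 had an adjusted p under 0.05 by the edgeR quasi-likelihood test (Benjamini-Hochberg adjustment over 11844 genes), by DESeq2 or by limma-voom, and 1 of them, NOTCH1, had an unadjusted p under 0.05 by edgeR and 0 by limma-voom. Over all tested genes, 1.07% passed the adjusted threshold as higher and 0.371% as lower in siLSD1, and 7.48% and 6.55% passed the unadjusted one. The groups overlapped in all 8, whereas 11.4% of all tested genes were higher in every siLSD1 library than in any siCTR library and 9.97% were lower. The log2 fold changes of the 8 lay between -0.43 and 0.16 with a median of -0.16, beside a median of -0.01 over all genes, and 2 were above 0 and 6 below. Nothing is read from these counts.

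NOTCH1, a receptor (chromosome 9, 136494433 to 136546048), was counted 2975, 1669 and 2585 times in siCTR against 2141, 1678 and 1571 times in siLSD1. In CPM these were 229, 130 and 192 against 160, 135 and 117. Replicate 2 was the lowest of the siCTR libraries and lay below siLSD1 replicates 1 and 2, so the groups overlapped. The means were 184 ± 50.1 and 137 ± 21.6 CPM, and the log2 fold change was -0.43 (SE 0.18, 95% interval -0.82 to -0.03). The adjusted p was 0.309 by edgeR's quasi-likelihood test, and over 15 alternatives it ranged from 0.00575 to 0.626. With the counts corrected for the GC content and length of transcripts, NOTCH1 fell by 0.38 on the log2 scale (SE 0.09, adjusted p = 0.0271 by edgeR). Its value was -0.24 without siCTR replicate 1 (adjusted p = 0.547 by edgeR) and -0.62 without siCTR replicate 2 (adjusted p = 0.0799 by edgeR).

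NOTCH2, the receptor with the most reads (chromosome 1, 119911553 to 120100779), gave 410, 244 and 385 CPM in siCTR and 387, 370 and 404 CPM in siLSD1. Replicate 2 of siCTR was again the lowest, and the other 5 libraries lay between 370 and 410. The log2 fold change was 0.16 (SE 0.16, 95% interval -0.19 to 0.51), and it lay between -0.04 without siCTR replicate 2 and 0.30 without siCTR replicate 1. Human NOTCH2 has near-identical partial copies, the NOTCH2NL genes, and how reads shared with them were counted is not given in the sources used here. NOTCH3 (chromosome 19, 15159038 to 15200995), a related receptor, gave 48.8, 27.2 and 41.4 CPM in siCTR and 44.1, 39.0 and 31.8 CPM in siLSD1. Its means of 39.1 ± 11.0 and 38.3 ± 6.18 CPM differed by less than the spread of either group, with a log2 fold change of -0.03 (SE 0.19) and limits of -0.45 and 0.39. It was -0.23 without siCTR replicate 2, 0.16 without siCTR replicate 1, 0.09 without siLSD1 replicate 3 and 0.01 with the correction for GC content and length. NOTCH4 was not listed.

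JAG1, the transmembrane ligand (chromosome 20, 10637684 to 10673999), gave 17.2, 15.4 and 18.1 CPM in siCTR and 16.2, 13.9 and 13.6 CPM in siLSD1. Only siLSD1 replicate 1 reached into the siCTR range. Its log2 fold change was -0.22 (95% interval -0.53 to 0.10), and it lay between -0.30 and -0.17 under the 15 alternatives. RBPJ, the protein that carries the Notch intracellular domain to DNA (chromosome 4, 26163455 to 26435131), gave 71.1, 57.5 and 76.2 CPM in siCTR and 61.0, 70.5 and 76.1 CPM in siLSD1. Its groups covered nearly the same range, with a log2 fold change of 0.02 (SE 0.14, 95% interval -0.27 to 0.31). RBPJ was at -0.09 without siCTR replicate 2, at -0.05 without siLSD1 replicate 3, at -0.01 with the correction for GC content and length, and at most at 0.11, without siCTR replicate 3.

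HES1, the repressor most often read as a Notch target (chromosome 3, 194136148 to 194138732), was counted 122, 197 and 122 times in siCTR against 151, 135 and 120 times in siLSD1. This was 9.40, 15.3 and 9.07 CPM against 11.3, 10.8 and 8.90 CPM. Replicate 2 of siCTR stood above all others, and siLSD1 replicates 1 and 2 stood above the other 2 siCTR libraries. HES1 had a log2 fold change of -0.13 (SE 0.21, 95% interval -0.58 to 0.33), and its sign rested on siCTR replicate 2, without which it was 0.16.

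HES4, a HES repressor with no ortholog in the mouse (chromosome 1, 998962 to 1000172), gave 29.0, 34.6 and 18.1 CPM in siCTR and 30.3, 24.2 and 13.0 CPM in siLSD1. Replicate 3 was the lowest library of each group. HES4 had a log2 fold change of -0.28 (SE 0.27, 95% interval -0.87 to 0.32). It was 0.00 without siLSD1 replicate 3, and with the counts corrected for GC content and transcript length it was 0.17. HEY1, a repressor of the related hairy/E(spl) with YRPW branch, gave 7.78, 11.1 and 8.48 CPM in siCTR and 7.75, 7.14 and 8.90 CPM in siLSD1, with a log2 fold change of -0.20 (SE 0.19, 95% interval -0.61 to 0.21). Without siCTR replicate 2, its highest library, HEY1 was at -0.03, and without siCTR replicate 1 at -0.31. HEYL, of the same branch (chromosome 1, 39623435 to 39639643), had 2 reads in siCTR replicate 1 and 0 reads in the other 5 libraries. A count of 0 allows up to 3 counts, or 0.222 to 0.241 CPM in a library, so that no difference in HEYL could be measured at this depth.

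**Figure D2:**
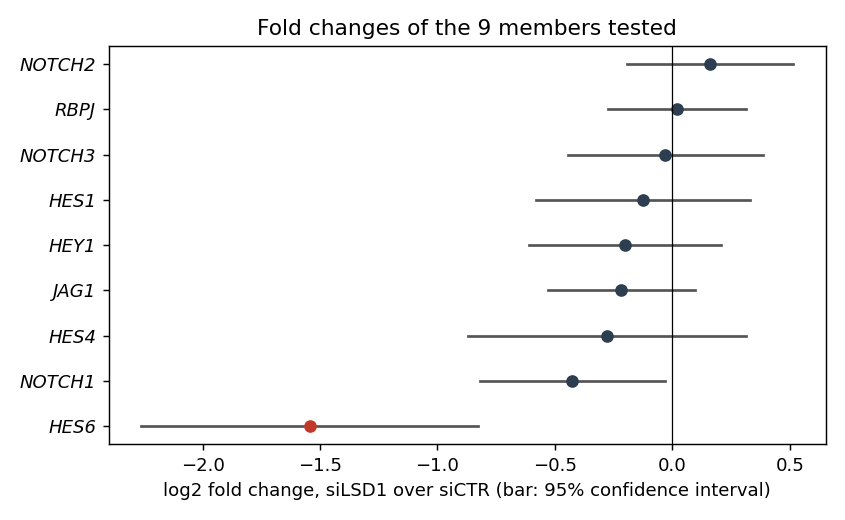
Log2 fold change, siLSD1 over siCTR (x axis), of the 9 members that passed the filter on low counts (y axis), from the edgeR fit on 3 libraries per group. Points are estimates and bars 95% intervals. HES6 is at -1.54, with an interval that does not allow for its choice by its fall. The other 8 lie between -0.43 and 0.16, where the interval of NOTCH1 ends at -0.03 and the other 7 cross 0.

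Compared between genes per length, as the FPKM values of the deposited table allow, HES6 was among the lowest of the members in both groups. In siCTR the order by mean FPKM was HES4 (26.1 ± 7.87), NOTCH2 (21.6 ± 5.80), NOTCH1 (19.8 ± 5.60), RBPJ (10.5 ± 1.58), HES1 (7.12 ± 2.14), NOTCH3 (4.52 ± 1.31), HEY1 (3.53 ± 0.641), HES6 (3.08 ± 1.19), JAG1 (2.84 ± 0.252) and HEYL (0.0142 ± 0.0245). Libraries of neighbours in this order overlapped in 6 of the 9 pairs, the gaps being between NOTCH1 and RBPJ, between HES1 and NOTCH3 and between JAG1 and HEYL. HES6, at 2.06 to 4.39 FPKM, overlapped with NOTCH3, HEY1 and JAG1, whereas the highest JAG1 library (3.04 FPKM) lay below the lowest of NOTCH3 (3.09) and HEY1 (3.05).

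In siLSD1 the mean FPKM was 24.1 ± 1.07 for NOTCH2, 21.7 ± 8.59 for HES4, 14.7 ± 2.45 for NOTCH1, 10.7 ± 1.10 for RBPJ, 6.55 ± 0.834 for HES1, 4.42 ± 0.746 for NOTCH3, 3.08 ± 0.339 for HEY1, 2.45 ± 0.261 for JAG1, 1.06 ± 0.327 for HES6 and 0 for HEYL. Here the overlaps were between NOTCH2 and HES4 and between HES4 and NOTCH1. HES6 gave 2.77, 4.39 and 2.06 FPKM in siCTR and 1.11, 1.36 and 0.710 FPKM in siLSD1. In siCTR its libraries overlapped with those of HEY1 and JAG1, and in siLSD1 they lay below all libraries of both. Both orders were the same when TMM-scaled CPM were divided by the length of the canonical transcript, with neighbours overlapping in 6 pairs in siCTR and in 4 pairs, not 2, in siLSD1.

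Libraries differed within their groups in a way that followed transcript length and GC content over all tested genes. Over the 2942 genes with the shortest transcripts (207 to 2074 bases), the median log2 deviation of siCTR replicate 2 from the mean of all 6 libraries was 0.22, and over those with the longest (5249 to 109224 bases) it was -0.17. Over the genes of the highest GC content (57.2% to 76%), siLSD1 replicate 3 was at -0.27, siLSD1 replicate 1 at 0.16 and siCTR replicate 1 at 0.14. Over those of the lowest (30.7% to 41.8%), siLSD1 replicate 3 was at 0.13, siLSD1 replicate 1 at -0.14 and siCTR replicate 1 at -0.07. The members are described in siCTR replicate 2 and siLSD1 replicate 3, which were picked out after their values were seen.

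In siCTR replicate 2, HES6, HES1, HES4 and HEY1, with transcripts of 885 to 2197 bases, were all at their siCTR maximum, at 0.53, 0.45, 0.34 and 0.29 above the log2 of the group mean. The 5 members with transcripts of 5395 to 11425 bases were all at their siCTR minimum, with JAG1 at -0.13, RBPJ at -0.25, NOTCH1 at -0.50, NOTCH2 at -0.51 and NOTCH3 at -0.53. In siLSD1 replicate 3, the GC-rich transcripts of HES4 (73.8% GC) and HES6 (66.2%) were at -0.79 and -0.57, and those of HEY1 (46.7%) and RBPJ (37.2%) at 0.17 and 0.14. The others lay between these, nearly in the order of their GC content. NOTCH1 (63.5%) was at -0.23, NOTCH3 (63.1%) at -0.27, HES1 (50.0%) at -0.22, JAG1 (49.6%) at -0.10 and NOTCH2 (49.4%) at 0.06. With counts corrected for GC content and transcript length, HES6 was at -1.29. The size of the HES6 difference and the signs of HES1, HES4, NOTCH2, NOTCH3 and RBPJ differed with and without 1 of these libraries or that correction, as given above. Whether length or GC content caused this was not tested.

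**Figure D3:**
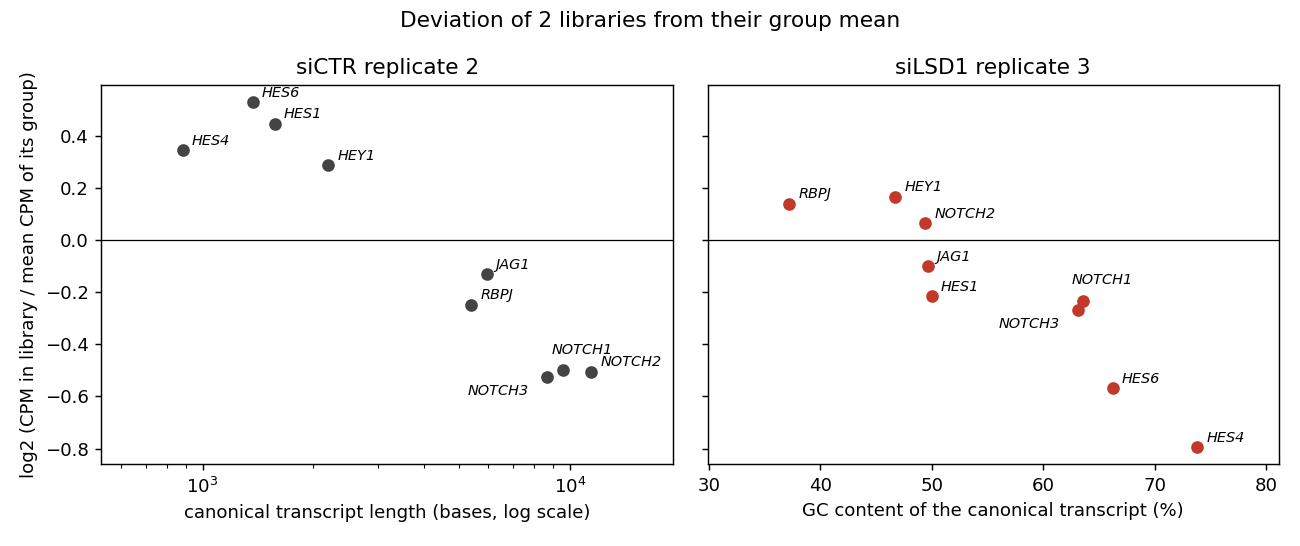
Log2 of a member's CPM in 1 library over the mean CPM of its group (y axis), for siCTR replicate 2 against the length of the canonical transcript in bases (left, log axis) and for siLSD1 replicate 3 against its GC content in percent (right). Each point is 1 of the 9 members that passed the filter. In siCTR replicate 2 the 4 short transcripts lie above 0 and the 5 long ones below, and in siLSD1 replicate 3 HES4 and HES6 lie lowest.

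Correlations over the 6 libraries carry this pattern as well as the difference between the groups, and are given as descriptions. The log2 CPM of HES6 had a Pearson r of 0.67 with HES4, 0.58 with HES1, 0.51 with HEY1, 0.51 with JAG1, 0.37 with NOTCH1, -0.16 with NOTCH3, -0.46 with RBPJ and -0.68 with NOTCH2. When 11565 genes that reached 1 CPM on average were compared, the patterns most like that of HES6 were those of COMMD5 (r = 0.995), LITAF (0.995), ID1 (0.994), CHPT1 (0.994) and ZFP14 (0.990). They were chosen by their likeness to HES6, which fixes the libraries in which they are high or low and the sign of their difference. Their log2 fold changes ran from -0.71 for ID1 to -0.18 for CHPT1, and none of the 5 had an adjusted p under 0.05 by edgeR (0.0920 for ID1 to 0.500 for CHPT1). ID1, an inhibitor of bHLH factors, gave 13.2, 17.8 and 11.9 CPM in siCTR and 8.64, 9.95 and 7.71 CPM in siLSD1.

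The rest of the Notch pathway was read from a list of 63 other genes, of which 56 were in the table and 53 passed the filter. DNER rose after LSD1 knockdown, and HES2 and CCND1 fell. These 3 were the only listed genes with an adjusted p under 0.05 by edgeR, 1 of 53 higher and 2 of 53 lower, beside the 1.07% and 0.371% of all genes given above. At an unadjusted p under 0.05, 6 of 53 were higher and 4 lower, beside 7.48% and 6.55% of all genes. Groups without overlap were seen in 7 genes higher and in 7 genes lower after the knockdown, beside 11.4% and 9.97% of all genes, and nothing is read from these counts. The median log2 fold change was -0.03, with 25 genes above 0 and 28 below.

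Among the ligands, DNER, a neuronal transmembrane protein with EGF repeats described as a non-canonical Notch ligand (chromosome 2, 229357629 to 229714555), gave 25.6, 25.5 and 23.2 CPM in siCTR and 37.1, 45.8 and 41.2 CPM in siLSD1. All siLSD1 libraries lay above all siCTR libraries. DNER had a log2 fold change of 0.74 (SE 0.13, adjusted p = 0.0135 by edgeR's quasi-likelihood test), and the adjusted p was 0.0715 without siCTR replicate 3 and 0.102 without siLSD1 replicate 2. Of 7 listed ligands 4 passed the filter, with a median of -0.20, while DLL4 had at most 5 reads and DLK1 at most 1 in any library.

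HES2, a further HES repressor (chromosome 1, 6412418 to 6424670), gave 15.0, 13.5 and 14.7 CPM in siCTR and 9.24, 8.10 and 7.56 CPM in siLSD1, with no overlap. It fell by 0.79 on the log2 scale (SE 0.16, adjusted p = 0.0253 by edgeR's quasi-likelihood test). With any 1 of the 6 libraries left out the adjusted p was between 0.0505 and 0.136, at a log2 fold change of -0.88 to -0.73. Of the 6 listed HES and HEY genes outside the members, 3 passed the filter, with a median of -0.71.

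CCND1, which encodes cyclin D1 and is a Notch target in some tissues among many other inputs (chromosome 11, 69641156 to 69654474), gave 200, 172 and 201 CPM in siCTR and 126, 120 and 116 CPM in siLSD1, again with no overlap. It fell by 0.67 on the log2 scale (SE 0.11, adjusted p = 0.0113 by edgeR's quasi-likelihood test). The adjusted p was 0.0618 without siCTR replicate 3 and 0.0902 without siLSD1 replicate 2. The other known targets that passed the filter were NRARP and MYC, and neither had an unadjusted p under 0.05.

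The steps between ligand and nucleus were described by role. All 8 genes of receptor cleavage passed the filter and had a median of 0.09, and the γ-secretase subunit APH1B, at 9.26 ± 1.58 against 14.7 ± 0.729 CPM, had a log2 fold change of 0.67 (adjusted p = 0.0676 by edgeR). The γ-secretase subunit NCSTN, at 96.7 ± 10.9 against 126 ± 8.85 CPM, had a log2 fold change of 0.39 (adjusted p = 0.157 by edgeR). The groups did not overlap in either, and neither passed the adjusted threshold in this fit. APH1B passed it by DESeq2 (adjusted p = 0.0267), without a filter on low counts (0.0379 by edgeR) and with the correction for GC content and length (0.0225), within a range of 0.00271 to 0.274 over the 15 alternatives. NCSTN passed it with that correction (adjusted p = 0.0305 by edgeR), within a range of 0.0119 to 0.473.

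Of the 9 genes that modify ligands and receptors, POFUT1, which adds O-fucose to Notch, had a log2 fold change of 0.31 (adjusted p = 0.181 by edgeR) and LFNG, a Fringe glycosyltransferase, one of -0.71 (adjusted p = 0.320 by edgeR) with overlapping groups. LFNG was at -1.14 without siLSD1 replicate 1 and at -0.46 without siLSD1 replicate 3. Among 8 nuclear coactivators the Mastermind gene MAML2 was at 0.70 (adjusted p = 0.202 by edgeR) and the acetyltransferase KAT2B at -0.38 (adjusted p = 0.260 by edgeR). POFUT1 and KAT2B passed the adjusted threshold with the correction for GC content and length (0.0413 and 0.0446 by edgeR), within ranges of 0.0271 to 0.556 and 0.0257 to 0.701 over the alternatives. Of 11 corepressors, TLE4, a Groucho homologue that HES proteins recruit, was at 0.26 (adjusted p = 0.276 by edgeR). None of the 7 genes of receptor turnover had an unadjusted p under 0.05. The medians of these roles lay between -0.07 and 0.06.

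**Figure D4:**
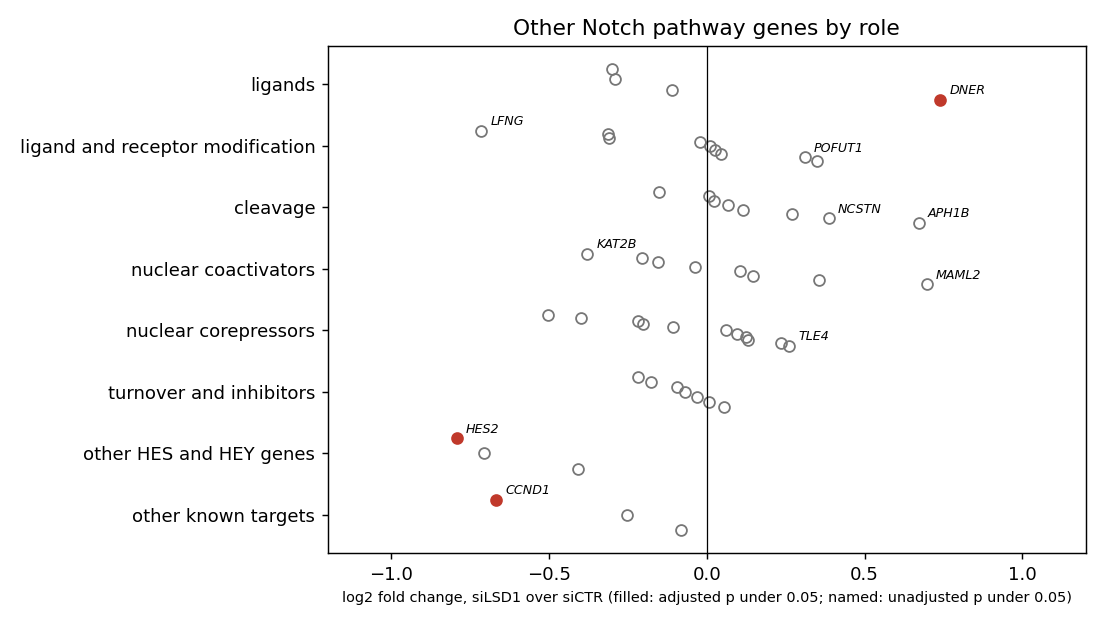
Log2 fold change, siLSD1 over siCTR (x axis), of the 53 Notch pathway genes outside the members that passed the filter, by role (y axis). Each point is a gene, filled points have an adjusted p under 0.05 by edgeR, and genes with an unadjusted p under 0.05 are named. DNER is the filled point above 0, and HES2 and CCND1 are the filled points below 0.

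**Figure D5:**
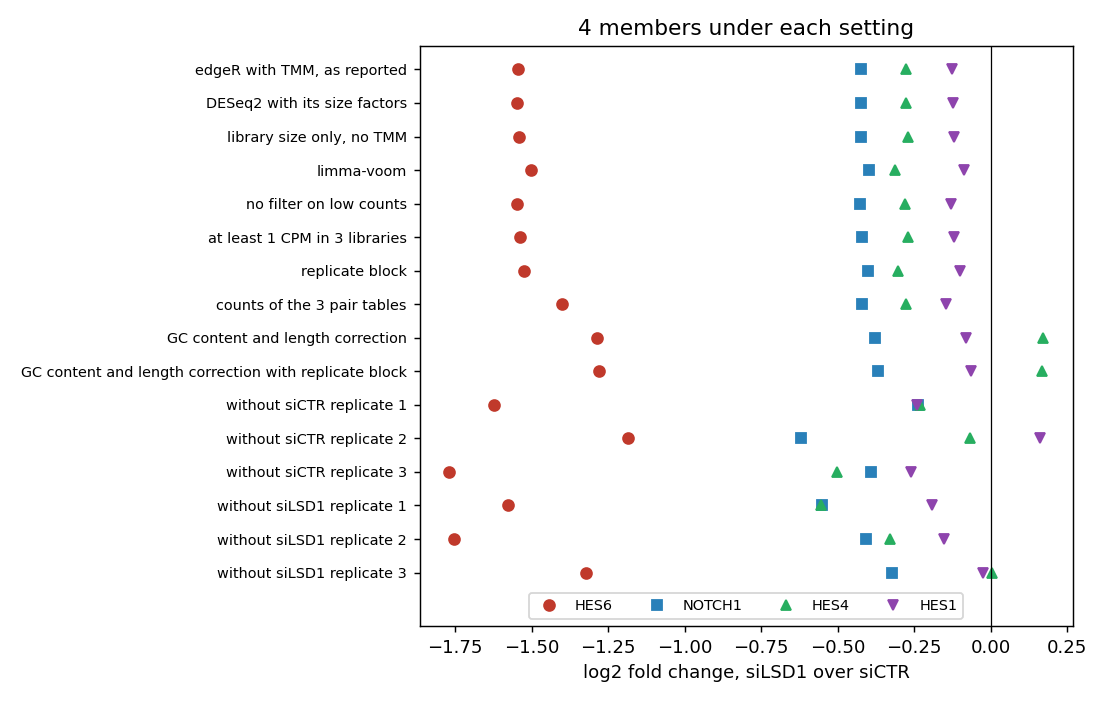
Log2 fold change, siLSD1 over siCTR (x axis), of HES6, NOTCH1, HES4 and HES1 as reported and under each alternative processing or left-out library (y axis). HES6 lies between -1.77 and -1.18 throughout and NOTCH1 between -0.62 and -0.24, while HES4 and HES1 lie on both sides of 0.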

How the data were processed

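RNA-seq of 6 U2OS libraries was used, 3 siCTR and 3 siLSD1, grouped and numbered from their labels. Alignment by the authors used STAR, and the deposited table gives whole read counts of each gene without normalization, together with FPKM values, which the authors scaled to gene length and library. The genome build, annotation, counter and strand setting are not given in the sources used here. The deposited table also holds fold changes and p-values from the authors' own comparison, which were not used. Other deposited tables, for each pair of libraries with 1 number, repeat the counting with other values and served as an alternative.

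Counts were tested in R 4.3.3 with edgeR 4.0.16 (TMM, quasi-likelihood test, no covariates, and filterByExpr at a minimum count of 10), and p-values were adjusted over the 11844 of 15585 genes that passed, with the Benjamini-Hochberg method. Log2 CPM used a prior count of 2. DESeq2 1.42.0, limma-voom (limma 3.58.1), other scaling and filters, the replicate number as a block, each library left out, and a lowess correction (span 0.3) for GC content and length, known for 99.3% of tested genes, were alternatives. Figures were drawn with Python 3.11.15 and matplotlib 3.10.9. The edgeR, DESeq2 and limma-voom fits were tested on simulated counts with the same dispersion for all genes and no length, GC or replicate effects. The block and the correction for GC content and length were not tested in this way. The biological coefficient of variation was 12.6%, and no 2 libraries were alike within sampling noise (chi-square per degree of freedom 6.45 to 39.3), so that each counted as 1 sample. An exact permutation test of 3 against 3 libraries could not go below 0.1 and was not used.

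The members and gene lists were chosen with earlier results of these data known, and the lists were written from general knowledge. Named genes are the members, KDM1A, the marker genes, the 5 genes most correlated with HES6, and those pathway and bHLH genes whose unadjusted p was under 0.05. NOTCH4, DLL4, DLK1, NRARP, MYC, HES7, HEY2 and ATOH8 were named outside this rule, after their values were seen. Some listed genes are not reported here. Symbols were matched to GENCODE 44 on GRCh38 for 15352 genes, 389 of them through a synonym. Promoters are from RefSeq, whose table held 13 promoters of 9 members. Bases that GENCODE gives to an exon of another transcript were left out of the printed sequences, apart from a motif.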

Additional observations from a re-analysis of the deposited data

How the results depend on the processing

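HES6 stayed below 0 under all 15 alternatives, at -1.40 with the second set of counts, -1.53 with the replicate number as a block and -1.28 with the block and the correction for GC content and length. Since HES6 was chosen for its fall in these same libraries, its sign here is a description and no support for that fall. The count of other members past the adjusted threshold, 0 as reported, was 1 (NOTCH1, lower) with the block, with the correction and with both, and 0 with each library left out. At an unadjusted p it was 1 as reported, 0 by limma-voom, 2 with the block, 2 with the correction, 2 with both and 0 to 1 with a library left out. The Notch pathway list had 3 genes past the adjusted threshold as reported, 4 by DESeq2 and 4 without a filter on low counts (adding APH1B), 6 with the block (adding APH1B, NCSTN and HES7), 7 with the correction, 9 with both and 0 to 2 with a library left out, the 0 being without siCTR replicate 3 or siLSD1 replicate 2. Its count at an unadjusted p, 10 as reported, was 16, 17 and 21 with the block, the correction and both, and 8 to 14 with a library left out. The bHLH list had 0 as reported, 1 by DESeq2 and 1 without a filter on low counts (ID1), 2 with the block, 2 with the correction and 2 with both (ID1 and TCF3). Over all genes the adjusted count was 171 as reported, 323 by DESeq2, 290 without a filter, 897 with the block, 1013 with the correction, 1528 with both and 58 to 136 with a library left out. The cause of these shifts was not tested. The replicate numbers were not taken to pair the libraries, since the labels give no shared batch. The deviations of same-numbered libraries from their group means correlated at 0.348, 0.080 and 0.343, and those of other numbers at -0.315 to 0.009. Each library thus correlated best with its own number, and the deposited comparisons include each pair of 1 number. Whether the libraries were made in pairs is not given in the sources used here. The median of all genes lay between -0.02 and 0.00 under every alternative. Depth limits HES6, at 17 to 101 reads per library, and HEYL, at 0 to 2.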

Other observations

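HES6 is known to act beside proneural and myogenic bHLH factors. A list of 33 bHLH, partner and neurogenic genes that was written for it held few that were expressed in these cells. Of 12 proneural and other neurogenic genes 4 were in the table and none passed the filter on low counts, with ATOH8 at 0 to 8 reads per library. None of the 4 myogenic genes was listed in the table. In all, 15 of the 33 were in the table and 9 passed the filter.

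None of the 9 had an adjusted p under 0.05 by edgeR or limma-voom, 1 (ID1) did by DESeq2, and 3 had an unadjusted p under 0.05 by edgeR, 1 higher and 2 lower, beside 7.48% and 6.55% of all tested genes. The E protein TCF3, the common dimer partner of tissue bHLH factors, gave 162, 145 and 147 CPM in siCTR and 232, 197 and 167 CPM in siLSD1, with a log2 fold change of 0.40 (SE 0.13, adjusted p = 0.179 by edgeR, and 0.000951 to 0.455 over the alternatives). ID1, which binds E proteins and keeps them from DNA, was at 14.3 ± 3.12 against 8.77 ± 1.13 CPM (SD, n = 3 libraries each), a log2 fold change of -0.71 (SE 0.19, adjusted p = 0.0920 by edgeR, and 0.00244 to 0.236 over the alternatives). TWIST2, a mesenchymal bHLH repressor, was at 15.1 ± 0.372 against 11.3 ± 1.71 CPM, a log2 fold change of -0.42 (SE 0.16, adjusted p = 0.238 by edgeR). Of the 9, the groups did not overlap in 1 gene higher and 2 lower, beside 11.4% and 9.97% of all tested genes. These were the 3 genes just given, which were named for their unadjusted p, so nothing is read from this count. The median over the 9 was -0.23.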
